A study of Mus musculus with 58 samples.

Results

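Ly6c2, Ly6e, Ly6a and Ly6i, 4 genes of the Ly6 family on mouse chromosome 15, were followed through 3 liver myeloid cell populations in cholestatic injury, colitis and both together. They were chosen by name, and all 4 were found among the 25307 genes of the deposited count table. Bulk 3' RNA-seq had been run on 58 libraries from Kupffer cells (KC, the resident macrophages of the liver), monocyte-derived macrophages (MoMF) and monocytes (Mo), all from livers of 129SV mice. CBDL+DSS mice carried a ligated common bile duct, which blocks bile flow, and acute colitis as a second hit. DSS mice, named for dextran sulfate sodium, had acute colitis. CBDL6w and CBDL2w mice had the ligation alone, at 6 weeks (advanced injury) or 2 weeks (onset), and Sham6w mice were the controls. Each of the 15 groups held 4 libraries, except 3 each in MoMF Sham6w and Mo Sham6w, and 9 libraries carried 2 or 3 replicate numbers in their names. Animal age, the duration of DSS and the sorting gates are not among the labels. The names of CBDL+DSS libraries hold no number of weeks, so their time of ligation may differ from that of CBDL6w. CBDL2w was set against the same 6-week Sham6w group. Nothing states that replicates were separate mice, so p-values measure the spread between these libraries, which may be technical.

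Ly6 proteins are small cell-surface proteins held in the membrane by a glycosylphosphatidylinositol (GPI) anchor and folded around conserved disulfide bonds. Ly6c2 encodes one of the proteins recognised by anti-Ly-6C antibodies, whose high staining defines classical, inflammatory monocytes in mice and is lost as these cells become tissue macrophages. Ly6a encodes Sca-1, known from haematopoietic stem cells, activated lymphocytes and endothelium, and is induced by interferons. Ly6e is broadly expressed and also interferon-responsive, and its human counterpart restricts coronavirus entry. Ly6i is a close relative of Ly6a described in mouse haematopoietic and myeloid cells.

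The members lie within one stretch of chromosome 15 (GRCm38) and are all annotated as protein-coding. Ly6e occupies chr15:74955051-74959905 on the plus strand, Ly6i chr15:74979534-74983430, Ly6a chr15:74994877-74998031 and Ly6c2 chr15:75108158-75111970, the last 3 on the minus strand. The first 60 coding bases, read from the GRCm38 genome, are shown for the likeness of these genes. The 3' tags of these libraries read the other end of the transcript. Capitals mark the bases that differ from Ly6c2, and Ly6c1, the nearest copy of Ly6c2, is added for comparison.
Ly6c2: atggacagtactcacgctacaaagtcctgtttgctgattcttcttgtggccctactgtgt
Ly6c1: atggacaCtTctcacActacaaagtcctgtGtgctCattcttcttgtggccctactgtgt
Ly6a: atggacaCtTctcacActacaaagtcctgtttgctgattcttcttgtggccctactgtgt
Ly6i: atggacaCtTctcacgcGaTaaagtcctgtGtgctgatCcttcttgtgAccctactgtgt
Ly6e: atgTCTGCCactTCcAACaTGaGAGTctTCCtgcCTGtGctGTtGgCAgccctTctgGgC
Ly6a differed from Ly6c2 at 3 of these bases, Ly6c1 at 5, Ly6i at 7 and Ly6e at 32. Over the whole coding sequence, Ly6c2 was 97.71% identical to Ly6c1, 81.59% to Ly6a and 81.34% to Ly6i, and Ly6a was 86.32% identical to Ly6i. Ly6e stood apart, at 50.92% to 53.62% identity with the other members. Ly6c2 and Ly6c1 were 90.82% identical even in their last 200 transcript bases, the end that 3' tags read, so part of the count of either gene could belong to the other. Over those bases Ly6c2, Ly6a and Ly6i were 80.19% to 83.01% identical to each other, and Ly6i was 85.64% identical to Ly6c1. The mice were 129SV and the reference is C57BL/6J, and the effect of strain differences on tag assignment was not tested.

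A promoter window in the RefSeq table (GRCm38.p6) was found for 1 of the 4 members, Ly6c2, and is shown because this gene separated the cell types most. It spans chr15:75111922-75112221 on the minus strand, 250 bases before to 50 after the start, with capitals on the core motif of PU.1, a transcription factor of myeloid cells.
Ly6c2 promoter: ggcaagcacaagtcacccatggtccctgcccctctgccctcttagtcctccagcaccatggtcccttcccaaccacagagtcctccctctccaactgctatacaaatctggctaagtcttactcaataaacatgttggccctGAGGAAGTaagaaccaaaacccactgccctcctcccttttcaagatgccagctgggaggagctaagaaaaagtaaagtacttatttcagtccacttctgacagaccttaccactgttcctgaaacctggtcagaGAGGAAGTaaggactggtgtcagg
GAGGAAGT was matched 2 times in this window, with both strands searched, and 3.2% of all 32851 windows of this length hold it. The interferon-stimulated response element core GAAANNGAA (held by 8.56% of windows) and the gamma-activated site TTCNNNGAA (8.3%) were matched 0 times. A match or its absence describes these letters in this window and not a binding site.

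Library totals ran from 228741 to 521954 reads in KC, 118687 to 461071 in MoMF and 235531 to 377725 in Mo, with 8885 to 13360 genes detected. The labels fitted their markers: Kupffer cell genes (12 listed, such as Clec4f and Timd4) took 0.338% to 1.05% of reads in KC libraries, 0.0272% to 0.353% in MoMF and 0.01% to 0.135% in Mo. Classical monocyte genes other than Ly6c2 (14 listed, such as Ccr2 and Plac8) took 0.0353% to 0.21% in KC, 0.116% to 0.553% in MoMF and 0.574% to 1.2% in Mo. All injured KC groups held fewer Kupffer gene reads, at 0.641% to 0.823% in CBDL+DSS, 0.662% to 0.8294% in DSS, 0.338% to 0.636% in CBDL6w and 0.437% to 0.595% in CBDL2w, than KC Sham6w (0.963% to 1.05%), without overlap. Levels below are normalized counts, reads divided by the size factor of each library, which are not scaled by gene length and are therefore compared within a gene only.

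Ly6c2 was a monocyte transcript in every injury group. It lay between 0 and 13.7 normalized counts in the 20 KC libraries, between 1.60 and 25.2 in the 19 MoMF libraries and between 75.6 and 363 in the 19 Mo libraries, so the lowest Mo library stood above the highest of any other cell type. In limma fits on log2(normalized count + 1), the scale of all log2 differences here, Ly6c2 was lower in KC than in Mo in 5 of 5 injury groups, by -6.82 to -4.85 (adjusted p between 2.57e-15 and 3.16e-11). It was likewise lower in MoMF than in Mo in 5 of 5, by -4.51 to -3.42 (limma adjusted p between 1.51e-09 and 6.2e-06). KC held 3 Ly6c2 reads in all of Sham6w, against 434 in Mo Sham6w, a ratio of 0.00338 (exact 95% interval 0.000695 to 0.00996). Whether Ly-6C was a sorting marker is not given, so the sort and the cells' own expression cannot be told apart in this difference. In bulk libraries, fewer cells of a type and less RNA per cell cannot be told apart either.

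Between the macrophage populations the difference in Ly6c2 was smaller and rested on few reads. It was lower in KC than in MoMF in Sham6w (log2 difference -2.58, limma adjusted p = 0.000192), with 3 against 19 reads, and in CBDL6w (-3.01, adjusted p = 7.31e-06), with 2 against 39 reads. In CBDL+DSS the difference of -1.50 was called at an adjusted p of 0.0486. That last call was lost without any one of 6 libraries (all 4 of KC, MoMF replicate 2 or MoMF replicate 3), between -1.88 and -1.17. In DSS (-1.25, adjusted p = 0.0688) and CBDL2w (-0.34, adjusted p = 0.810) it did not pass.

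The other members did not follow Ly6c2 across cell types. Ly6e was higher in KC than in Mo in 4 of 5 groups, by 0.77 to 1.36 where called, and by 0.35 in DSS, where it was not called (limma adjusted p = 0.382). Ly6e was also higher in KC than in MoMF in CBDL2w (1.00, adjusted p = 0.00385) and CBDL6w (1.36, adjusted p = 5.66e-05). Ly6a differed in 1 of 15 comparisons, at -2.80 in KC against Mo of Sham6w (limma adjusted p = 0.0233). Leaving out Mo Sham6w replicate 1+2+5, Mo Sham6w replicate 3+6 or KC Sham6w replicate 2 ended that call, with differences between -3.27 and -2.24. Ly6i was lower in KC than in Mo in DSS (-3.70, limma adjusted p = 9.87e-06) and CBDL2w (-1.90, adjusted p = 0.0288), and lower in KC than in MoMF in DSS (-4.10, adjusted p = 2.32e-06). It reached 10 normalized counts in 8 libraries, 6 of them DSS, and would not have been tested without these. The DSS calls therefore rest on the group that carried Ly6i past the filter. The CBDL2w call set 1 read in KC against 16 in Mo, a ratio of 0.0548 (exact 95% interval 0.00131 to 0.352), and was lost without KC replicate 2, 3 or 4 or Mo replicate 2, between -2.13 and -1.60. The Ly6e calls of KC over Mo were lost in CBDL2w without Mo replicate 1 (range 0.61 to 1.00), and in CBDL6w without Mo replicate 1, Mo replicate 3 or KC replicate 2 (0.64 to 0.92).

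In all, 12 of 20 member tests of KC against Mo passed, 4 higher and 8 lower. The background for these tests, the share of all tested genes called in either direction, was 14.4% in CBDL+DSS, 14.7% in DSS, 15.3% in CBDL6w, 14.4% in CBDL2w and 16% in Sham6w. For KC against MoMF, 6 of 20 passed, 2 higher and 4 lower, with backgrounds of 4.88%, 13.5%, 9.66%, 6.63% and 15.9% in the same order of groups. The Ly6i calls in both counts are of a gene tested only because of DSS libraries. For MoMF against Mo, 5 of 20 passed, all 5 lower and all Ly6c2, and the genes called lower made up 2.34% of those tested in CBDL+DSS, 1.05% in DSS, 0.86% in CBDL6w, 0.781% in CBDL2w and 4.21% in Sham6w.

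**Figure D1:**
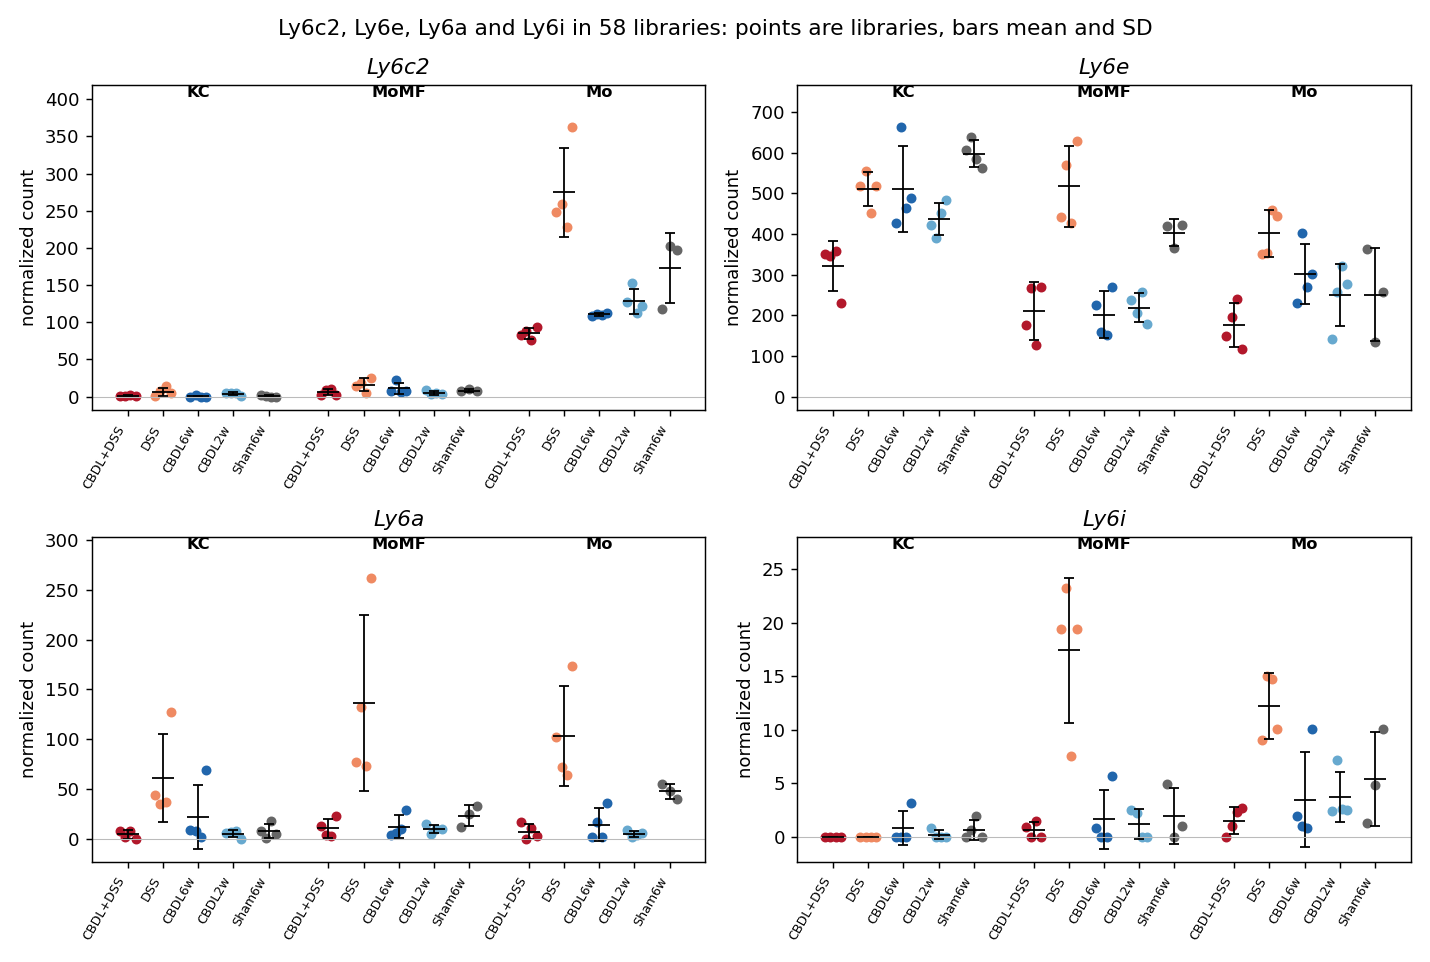
Normalized counts of Ly6c2, Ly6e, Ly6a and Ly6i (vertical axes, a panel per gene) in 15 groups of cell type and injury; points are libraries and bars the mean with its SD. Ly6c2 lies at or above 75.6 in every Mo library and at or below 25.2 in every KC and MoMF library, Ly6a is highest in the DSS group of each cell type, Ly6i in those of MoMF and Mo, and Ly6e is lowest in ligated groups of MoMF and in Mo CBDL+DSS.

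Within Mo, Ly6c2 fell in CBDL+DSS and CBDL6w relative to Sham6w and was highest in DSS. Of the 13 other classical monocyte genes tested, 6 rose in CBDL+DSS and 4 in CBDL6w, and 0 fell in either. The 4 CBDL+DSS libraries held 83, 88.0, 75.6 and 94.0 normalized counts of Ly6c2, against 118, 203 and 197 in the 3 Sham6w libraries. The CBDL6w libraries held 109, 112, 109 and 112. All CBDL+DSS and CBDL6w libraries lay below the lowest Sham6w library, the one named for replicates 1, 2 and 5.

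The Ly6c2 difference in Mo was -0.97 ± 0.19 (SE) for CBDL+DSS against Sham6w (limma adjusted p = 0.00203) and stayed called without each library in turn. For CBDL6w against Sham6w it was -0.60 ± 0.19 (adjusted p = 0.0464), a call lost without any one of the 4 CBDL6w libraries or without Sham6w replicate 3+6 or 4, with differences between -0.85 and -0.46, and lost under 5 of 8 alternative settings, among them the replicate block. The CBDL2w libraries (127, 152, 113 and 122) overlapped Sham6w, with a difference of -0.39 ± 0.19 (adjusted p = 0.197). The DSS libraries reached 249, 259, 228 and 363, all above the highest Sham6w library. That difference, 0.69 ± 0.19, missed the threshold (adjusted p = 0.0663). Against CBDL6w, CBDL+DSS libraries were lower without overlap, by -0.38 ± 0.18, which did not pass either (adjusted p = 0.419).

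The median difference of these 13 genes from Sham6w was 0.61 in CBDL+DSS (all genes -0.07) and 0.52 in CBDL6w. In CBDL2w 8 rose and 0 fell (median 0.85), and in DSS 1 rose and 0 fell (0.64), there on the same side as Ly6c2. Fn1, the matrix protein fibronectin, rose by 0.80 in CBDL+DSS (limma adjusted p = 0.00137). Ccr2, the chemokine receptor that takes monocytes out of bone marrow, rose by 0.81 in CBDL6w (adjusted p = 0.00534) and was 0.52 in CBDL+DSS (adjusted p = 0.0603). Plac8, a gene high in classical monocytes, rose by 1.3 in DSS (adjusted p = 0.0243) and was 0.12 in CBDL+DSS (adjusted p = 0.827). Summed, the 14 listed genes took 0.935% to 1.19% of reads in Mo CBDL+DSS, 0.691% to 0.893% in Mo DSS and 0.574% to 0.716% in Mo Sham6w, without overlap between CBDL+DSS and Sham6w.

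Endothelial transcripts moved in the same Mo libraries. The 16 listed endothelial genes took 0.0631% to 0.0890% of reads in CBDL+DSS, 0.300% to 0.634% in DSS, 0.0379% to 0.0657% in CBDL6w, 0.0440% to 0.0833% in CBDL2w and 0.388% to 0.653% in Sham6w. In CBDL+DSS against Sham6w 11 of 13 tested fell (median -3.57), in CBDL6w 12 of 13 (-4.48) and in CBDL2w 12 of 13 (-4.27), while in DSS 0 passed (-0.42). None of the 16 was at 0 throughout Mo Sham6w or Mo DSS, whereas Tie1 was at 0 throughout Mo CBDL+DSS, Emcn and Robo4 throughout Mo CBDL6w and Cldn5 throughout Mo CBDL2w. With the log2 endothelial share as a covariate, the Ly6c2 difference was -0.26 in CBDL+DSS (adjusted p = 0.954) and 0.27 in CBDL6w (adjusted p = 0.972). The shares of ligated and unligated Mo groups did not overlap, so ligation and endothelial transcripts cannot be told apart in this cell type. The make-up of the share differed too. Among the 3 listed genes with the highest mean, Fcgr2b led in Mo CBDL+DSS (133, Igfbp7 29.8, Ptprb 7.50 normalized counts). In Mo Sham6w Igfbp7 led (404, Ptprb 221, Fcgr2b 203). The 5 tested plasmacytoid dendritic cell genes, Siglech (-5.11) among them, also all fell in Mo CBDL+DSS against Sham6w, with shares of 0.0319% to 0.0831% in CBDL+DSS and 0.171% to 0.245% in Sham6w. B and plasma cell genes took 0.00159% to 0.01% in CBDL+DSS and 0.0206% to 0.0503% in Sham6w, and both genes tested fell, Jchain by 3.27 and Ighm by 2.25 on the log2 scale (limma adjusted p = 0.0187 and 0.00215). T and NK cell genes took 0.00103% to 0.00435% in CBDL+DSS and 0.00463% to 0.0146% in Sham6w, and the 1 tested did not pass. Patrolling monocyte genes took 0.208% to 0.224% in CBDL+DSS and 0.297% to 0.328% in Sham6w, and 2 of 8 fell. None of these shares overlapped between the 2 groups, and their part in the Ly6c2 difference was not tested.

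**Figure D2:**
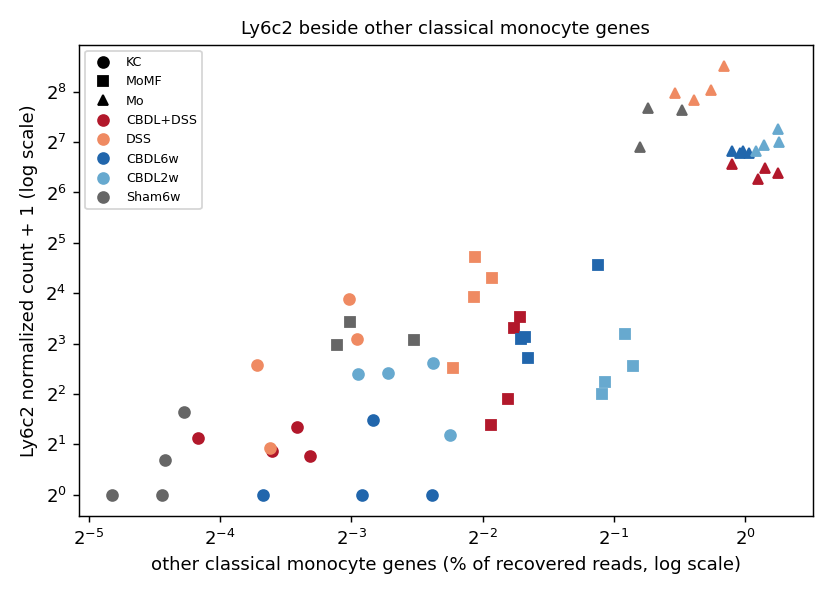
Ly6c2 (vertical axis, normalized count + 1, log scale) against the summed share of reads in the 14 other classical monocyte genes (horizontal axis, percent, log scale) in 58 libraries, by cell type and injury group. Mo libraries hold the top right, and among them CBDL+DSS libraries (75.6 to 94.0) lie below Sham6w libraries (118 to 203) although their share of the other genes is higher.

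In the macrophage populations Ly6c2 was sparse. MoMF libraries held 2.76, 8.86, 10.6 and 1.60 normalized counts in CBDL+DSS, 14.1, 18.9, 4.73 and 25.2 in DSS, 7.73, 22.6, 5.59 and 7.58 in CBDL6w, 8.18, 3.73, 4.90 and 2.99 in CBDL2w and 7.43, 9.78 and 6.87 in Sham6w. The groups overlapped, and CBDL+DSS against DSS, at -1.33, did not pass in limma (adjusted p = 0.159). In KC, Ly6c2 did not reach the filter of 10 normalized counts in 3 libraries and was tested alone by exact permutation. KC DSS held 0.894, 7.51, 13.7 and 4.96 and KC CBDL2w 4.36, 5.15, 4.30 and 1.27, against 2.13, 0.606, 0 and 0 in KC Sham6w. The differences from Sham6w were 2.03 in DSS and 1.57 in CBDL2w, each with an exact two-sided p of 0.0571 (adjusted over 7 comparisons, 0.133), where the smallest p that 70 permutations allow is 0.0286. KC CBDL+DSS (0.697 to 1.55) and KC CBDL6w (0 to 1.79) overlapped Sham6w, with exact p of 0.343 and 0.714, and KC CBDL+DSS was -1.59 from KC DSS (exact p = 0.0857).

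Ly6a rose in the macrophage populations of mice with colitis alone, and its differences from Sham6w in CBDL+DSS did not pass there (-0.76 in KC and -1.31 in MoMF). KC DSS libraries held 44.7, 35.0, 37.5 and 127 normalized counts of Ly6a, against 8.52, 1.21, 17.9 and 4.98 in Sham6w. The lowest DSS library stood above the highest Sham6w library. KC CBDL+DSS libraries held 7.66, 2.49, 8.55 and 0, within the range of Sham6w apart from replicate 6 at 0. MoMF DSS libraries held 77.7, 132, 73.8 and 262, against 12.4, 25.0 and 33.4 in Sham6w, again without overlap. MoMF CBDL+DSS libraries held 12.9, 4.43, 3.01 and 23.3.

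The DSS difference of Ly6a was 2.93 ± 0.88 in KC (limma adjusted p = 0.0440) and 2.39 ± 0.62 in MoMF (adjusted p = 0.0453). Both calls were near the threshold. In KC, Ly6a reached 10 normalized counts in 6 libraries, 4 of them DSS and 2 outside DSS, so it entered the fit only through the group where it was high. Without the filter the KC call was lost (adjusted p = 0.164), as it was in DESeq2 (adjusted p = 0.0512). In KC it was kept without KC Sham6w replicate 3 and lost without any other of the 8 libraries (2.38 to 3.41), and in MoMF it was lost without any one DSS library or Sham6w replicate 1+2+5 (2.00 to 2.68). Ly6a in Mo DSS (103, 71.8, 63.9 and 174) was above Mo Sham6w (55.1, 48.3 and 40.3) in every library, with a difference of 0.99 ± 0.85 that did not pass (adjusted p = 0.573). The DSS effect on Ly6a was not shown to differ between cell types, with differences of 0.55 to 1.95 and limma adjusted p from 0.671 upward.

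In Mo, Ly6a was lower in ligated mice. CBDL+DSS libraries held 16.8, 0, 10.8 and 2.71 and CBDL2w libraries 9.02, 1.80, 4.40 and 6.34, all below the 40.3 of the lowest Sham6w library. The differences from Sham6w were -3.20 ± 0.85 in CBDL+DSS and -3.07 ± 0.85 in CBDL2w (limma adjusted p = 0.0165 each). CBDL6w libraries held 1.92, 16.7, 1.66 and 36.6, with -2.52 ± 0.85 (adjusted p = 0.0583). The CBDL+DSS call was lost without Sham6w replicate 1+2+5, Sham6w replicate 3+6 or CBDL+DSS replicate 2 (-3.78 to -2.40), and the CBDL2w call without the same Sham6w libraries or CBDL2w replicate 2 (-3.33 to -2.72). Sca-1 is also an endothelial protein, and the endothelial share given above was low in the same ligated Mo groups. With that share as a covariate the differences were 0.41 ± 2.07 in CBDL+DSS and 1.1 ± 2.35 in CBDL2w, with limma adjusted p of 0.989 and 0.970. The shares of ligated and unligated Mo groups did not overlap. Ligation and endothelial transcripts therefore cannot be told apart for Ly6a either.

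The interferon-gamma response genes rose beside Ly6a in DSS. Of 17 tested, 9 rose and 0 fell in KC DSS (median 1.94, all genes -0.07), 5 rose and 0 fell in MoMF DSS (1.84, all genes 0.06) and 1 rose and 0 fell in Mo DSS (1.38, all genes -0.03). The 21 measured genes took 0.231% to 0.422% of reads in KC DSS and 0.0945% to 0.124% in KC Sham6w. In MoMF they took 0.168% to 0.297% in DSS and 0.0653% to 0.0887% in Sham6w. In Mo they took 0.171% to 0.396% in DSS and 0.149% to 0.193% in Sham6w, with overlap. Irf1, an interferon-induced transcription factor, rose by 0.86 in KC (limma adjusted p = 0.0467) and by 1.77 in MoMF (adjusted p = 0.0110). Of the type I interferon response list, 0 of 13 passed in KC DSS (median 0.32), 1 of 12 rose in MoMF DSS (0.88) and 1 of 13 rose in Mo DSS (0.03).

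Endothelial genes differed between these populations in DSS. In MoMF they took 0.246% to 0.283% of reads in DSS and 0.0430% to 0.0789% in Sham6w, and 4 of 11 tested rose. With the endothelial share as a covariate the Ly6a difference in MoMF was 1.80 ± 1.78 and not called (limma adjusted p = 0.852). The shares of MoMF DSS and Sham6w did not overlap, so the 2 cannot be told apart there. In KC they took 0.0300% to 0.0701% in DSS and 0.0277% to 0.0760% in Sham6w, overlapping, and 0 of 8 tested passed. Emcn and Robo4 were at 0 throughout KC DSS and Tie1 throughout KC Sham6w, while in MoMF none was at 0 throughout DSS and Cldn5 and Emcn were throughout Sham6w. In KC the Ly6a difference was 3.03 with the covariate and stayed called (adjusted p = 0.0414).

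**Figure D3:**
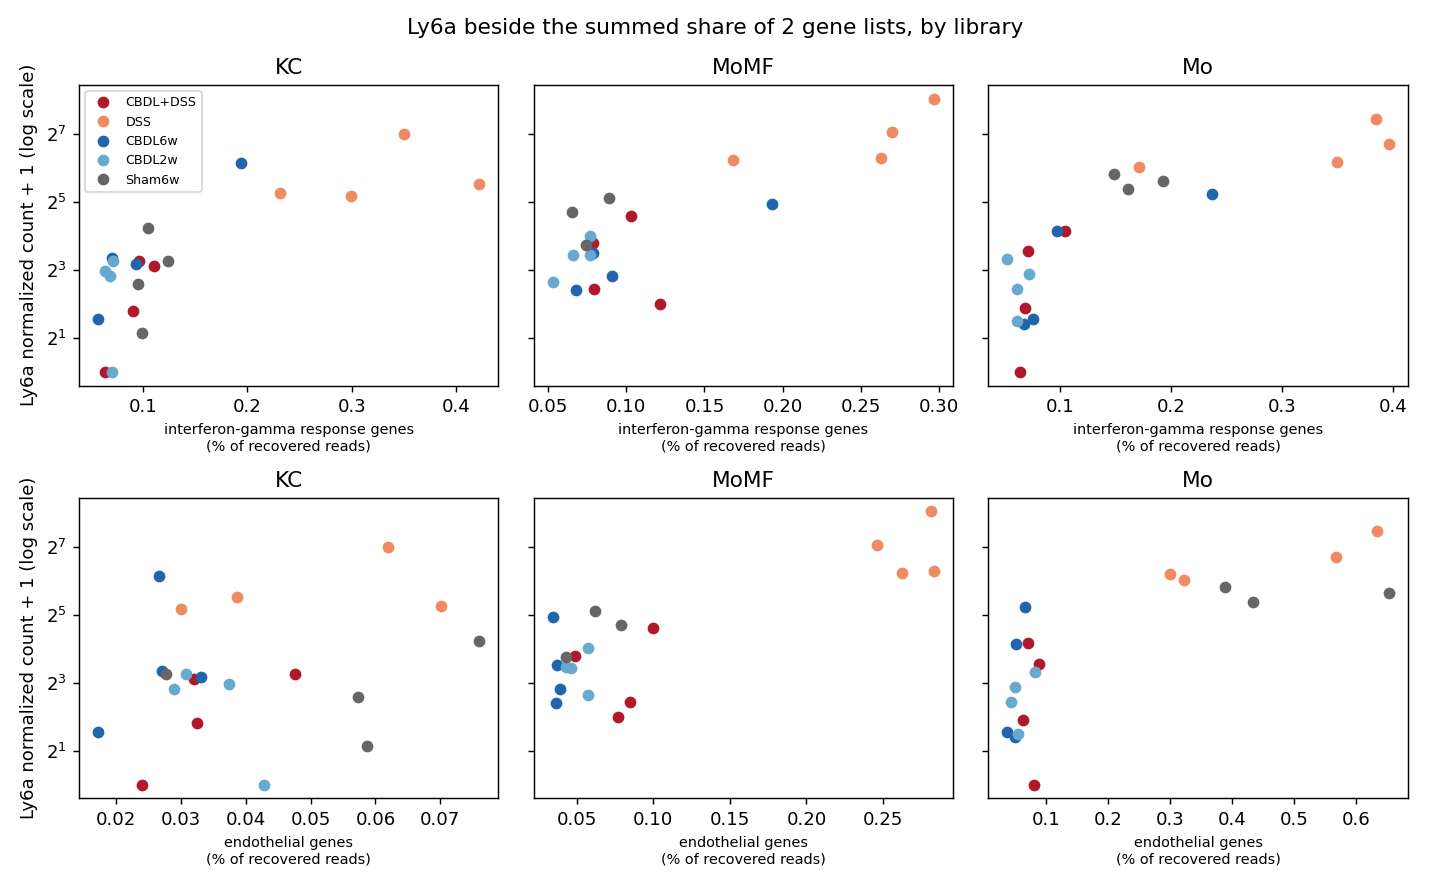
Ly6a (vertical axes, normalized count + 1, log scale) against the summed share of reads in interferon-gamma response genes (top row) and endothelial genes (bottom row), in percent, for KC, MoMF and Mo libraries by injury group. In the interferon-gamma share, DSS libraries lie above all others in KC and overlap CBDL6w in MoMF. In Mo (0.171% to 0.396%) they overlap CBDL6w and Sham6w (0.149% to 0.193%). In the endothelial share, DSS libraries lie above all others in MoMF. They overlap Sham6w in Mo (0.300% to 0.634% against 0.388% to 0.653%) and in KC (0.0300% to 0.0701% against 0.0277% to 0.0760%).

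Ly6i was near its detection limit in KC, and in MoMF and Mo its mean was highest in DSS. Some Mo libraries outside DSS came near the DSS level. They were Sham6w replicate 4 and CBDL6w replicate 4 (10.1 each) and CBDL2w replicate 2 (7.21). All 4 KC CBDL+DSS and all 4 KC DSS libraries held 0 reads, and the 20 KC libraries held 7 Ly6i reads in all. MoMF DSS libraries held 19.4, 23.3, 7.57 and 19.4 normalized counts, against 4.95, 0 and 0.982 in MoMF Sham6w. Mo DSS libraries held 9.08, 15.0, 14.7 and 10.1, against 1.31, 4.83 and 10.1 in Mo Sham6w. MoMF DSS stood above its controls without overlap while Mo DSS overlapped them. The differences were 2.91 ± 0.90 in MoMF (limma adjusted p = 0.0919) and 1.29 ± 0.73 in Mo (adjusted p = 0.373), and neither passed. With 0 reads in KC DSS and a floor of 3 reads over the group, Ly6i was at least 23.3-fold lower in KC than in MoMF and at least 15.9-fold lower than in Mo under DSS. These bounds cover counting error only. Ly6i reached 10 normalized counts in 3 MoMF libraries, all DSS, and in 5 Mo libraries, 3 of them DSS, so in either fit it was tested only because of DSS. With a pseudocount of 5 the MoMF difference was 1.68 and passed (limma adjusted p = 0.0167).

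The DSS effect on Ly6i differed between KC and MoMF, at -3.48 ± 0.92 (limma adjusted p = 0.0460), the 1 member called among 12 such tests. It was lost without 13 of the 15 libraries involved, all but MoMF Sham6w replicate 1+2+5 and MoMF DSS replicate 3, with values between -4.17 and -2.89, and without the filter on low values (adjusted p = 0.0745), which Ly6i passes over the 58 libraries only through DSS. The background of such differences was 0.86% of genes for KC minus MoMF, 0.238% for KC minus Mo and 0.0397% for MoMF minus Mo. For the CBDL6w effect 0 of 12 passed in limma, with 3 at an unadjusted p under 0.05, 0 in edgeR and 0 in DESeq2, against backgrounds of 0.397%, 1.58% and 0.649% in the same order.

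Ly6e fell in CBDL+DSS in both macrophage populations, and in MoMF also in CBDL6w. KC CBDL+DSS libraries held 351, 347, 359 and 230.4 normalized counts, against 606, 639, 585 and 562 in KC Sham6w. MoMF CBDL+DSS libraries held 177, 269, 127 and 271 and MoMF CBDL6w libraries 227, 158, 151 and 271, against 421, 366 and 423 in MoMF Sham6w. All 3 injured groups lay below their controls without overlap. The differences were -0.91 ± 0.15 in KC CBDL+DSS (limma adjusted p = 0.000738), -1.0 ± 0.26 in MoMF CBDL+DSS (adjusted p = 0.0161) and -1.04 ± 0.26 in MoMF CBDL6w (adjusted p = 0.0467).

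The Kupffer cell genes had lower medians in the same groups. In KC they took 0.641% to 0.823% of reads in CBDL+DSS and 0.963% to 1.05% in Sham6w, and 4 of 12 fell and 1 rose. In MoMF they took 0.0405% to 0.136% (median 0.0887%) in CBDL+DSS, 0.0421% to 0.249% (0.0713%) in CBDL6w and 0.0885% to 0.353% (0.345%) in Sham6w, with overlap, and 3 of 12 fell in CBDL+DSS and 0 passed in CBDL6w. In MoMF CBDL+DSS, Gzma, a granzyme of T and NK cells, fell by 4.14 on the log2 scale and Jchain, the joining chain of plasma cells, by 5.81 (limma adjusted p = 2.84e-05 and 9.18e-05). The part of these cell types in the Ly6e differences was not tested.

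The MoMF CBDL+DSS call of Ly6e was lost without CBDL+DSS replicate 3 (range -1.14 to -0.78), and the MoMF CBDL6w call without CBDL6w replicate 1, 2 or 3 or Sham6w replicate 1+2+5 or 4+6 (-1.19 to -0.91). MoMF CBDL2w (238, 205, 257 and 178) also lay below Sham6w, with -0.89 ± 0.26 (adjusted p = 0.0617). KC CBDL6w (427, 664, 465 and 489) overlapped KC Sham6w, with -0.25 (adjusted p = 0.444). KC CBDL2w (422, 391, 452 and 483) did not overlap, with -0.45 (adjusted p = 0.116). In KC, Ly6e also fell in CBDL+DSS against CBDL6w (-0.67 ± 0.15, adjusted p = 0.0281), a call lost without CBDL6w replicate 2 or CBDL+DSS replicate 6 (-0.75 to -0.51). In Mo, Ly6e in CBDL+DSS (150.2, 197, 239 and 117) overlapped Sham6w (362, 134 and 257), at -0.45 (adjusted p = 0.370), and DSS (351, 354, 459 and 445) did so too, at 0.78 (adjusted p = 0.163).

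The type I interferon response genes were uneven beside Ly6e. In CBDL+DSS against Sham6w, 4 of 13 fell and 0 rose in KC (median -1.28), 1 of 12 fell and 0 rose in MoMF (-0.19), where 9.8% of all genes were called, and 6 of 13 fell and 0 rose in Mo (-1.69), where Ly6e itself did not pass. With the endothelial share as a covariate, the Ly6e difference from Sham6w in KC CBDL+DSS was -0.85 (limma adjusted p = 0.0081). In MoMF CBDL+DSS it was -1.06 (adjusted p = 0.0239), and both were still called. The listed endothelial genes did not move together in MoMF CBDL+DSS. Fcgr2b rose there by 2.08 (limma adjusted p = 1.27e-06), while Igfbp7 (-0.63, adjusted p = 0.514) and Ptprb (-1.07, adjusted p = 0.163) did not pass. What the covariate shows about endothelial transcripts there is therefore limited.

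Of the 40 member tests of an injury against Sham6w, 2 passed as higher (Ly6a in KC and MoMF DSS) and 7 as lower. Backgrounds in CBDL+DSS were 3.31% of tested genes in KC, 9.8% in MoMF and 13.1% in Mo. In DSS they were 7.89%, 2.07% and 1.59%, in CBDL6w 3.25%, 1.22% and 11.2%, and in CBDL2w 2.71%, 3.06% and 13.8%. For CBDL+DSS against CBDL6w, 1 of 10 tests passed, with backgrounds of 1.74%, 4.16% and 0.573%. Between CBDL6w and CBDL2w, 0 of 10 passed in limma, 0 at an unadjusted p under 0.05, 0 in edgeR and 0 in DESeq2, with member differences of -0.40 to 1.29. The background there was 0% in KC (449 genes at an unadjusted p under 0.05, 0 called in edgeR and 10 in DESeq2), 0.0823% in MoMF and 0% in Mo (404, 0 and 7 genes in the same order).

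**Figure D4:**
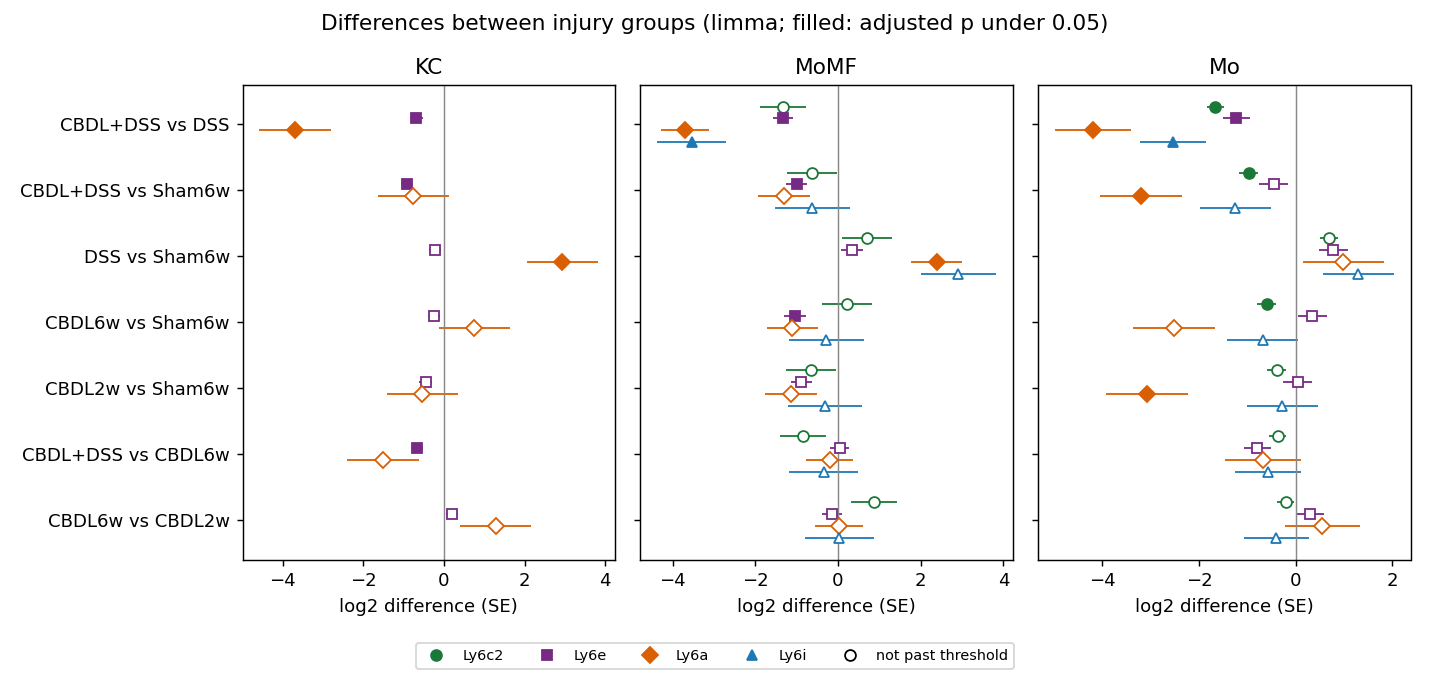
Log2 differences with their SE (horizontal axes) of the 4 members in 7 injury comparisons (rows), for KC, MoMF and Mo. Filled points have a limma adjusted p under 0.05. The row of CBDL+DSS against DSS, added after the values were seen, runs from -4.19 to -0.68, with 9 of 10 points filled. Genes called lower there made up 3% of those tested in KC, 5.1% in MoMF and 3.83% in Mo. Of these 10 tests, 4 were run only because DSS libraries carried the gene past the filter, so the count supports nothing. The row of CBDL6w against CBDL2w has no filled point.

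Set against each other, the 2 groups with colitis differed in nearly every member that was tested. This comparison, CBDL+DSS against DSS, is not among those the study states and was added after the values were seen. All 4 members fell in Mo and 9 of 10 tests passed as lower, while genes called lower made up 3% of those tested in KC, 5.1% in MoMF and 3.83% in Mo. Of the 10 tests, 4 (Ly6a in KC, Ly6c2 in MoMF, and Ly6i in MoMF and Mo) were run only because DSS libraries carried the gene past the filter, so the count itself supports nothing. Ly6a was -3.69 ± 0.88 in KC (limma adjusted p = 0.0111), -3.69 ± 0.58 in MoMF (0.00026) and -4.19 ± 0.78 in Mo (0.00174). Ly6e was -0.68 ± 0.15 in KC (adjusted p = 0.0069), -1.34 ± 0.24 in MoMF (0.000988) and -1.23 ± 0.28 in Mo (0.00827). Ly6c2 was -1.66 ± 0.18 in Mo (adjusted p = 6.32e-06). Ly6i was -2.54 ± 0.68 in Mo (adjusted p = 0.0282) and -3.53 ± 0.83 in MoMF (adjusted p = 0.00886), where 2 reads stood against 71 in DSS, the group through which Ly6i had entered these fits, a ratio of 0.0277 (exact 95% interval 0.0033 to 0.104).

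In these libraries the CBDL+DSS and DSS values of Ly6a, of Ly6c2 in Mo and of Ly6e did not overlap. The Ly6a call in KC was lost without CBDL+DSS replicate 6 (adjusted p = 0.0566), without the filter (0.0539) and with the replicate block (0.0835), and the Ly6i call in Mo without DSS replicate 2, 3 or 4 or CBDL+DSS replicate 1 or 2 (-2.78 to -2.15). The other 7 calls were kept without each library in turn. Interferon-gamma response genes moved the same way, with 9 of 17 lower in KC (median -2.07), 5 of 17 in MoMF (-1.52) and 11 of 17 in Mo (-2.25), and 0 higher in each. Type I interferon response genes fell in 7 of 13 tests in KC, 3 of 12 in MoMF and 7 of 13 in Mo, with 0 higher.

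Endothelial genes fell in 2 of 8 tests in KC, 10 of 11 in MoMF and 10 of 13 in Mo, and with their share as a covariate 2 of the 10 member tests passed, Ly6a (-3.31, adjusted p = 0.0389) and Ly6e (-0.63, adjusted p = 0.0242), both in KC. In MoMF and Mo the endothelial shares of CBDL+DSS and DSS libraries did not overlap, so the 2 cannot be told apart there. The plasmacytoid dendritic cell genes fell in 5 of 5 tests in Mo and their part was not tested. Other classical monocyte genes were divided in Mo, with 3 of 13 higher and 3 lower, Fn1 at 1.26 and Plac8 at -1.18 among them. Patrolling monocyte genes, which mark the Ly6c-low monocytes of blood vessels, fell in 7 of 12 tests and rose in 1 in MoMF, and in Mo 1 of 8 fell and 2 rose. T and NK cell genes fell in 2 of 2 tests in MoMF, B and plasma cell genes in 1 of 2, and hepatocyte genes rose in 2 of 4, while of 6 neutrophil genes tested in Mo none was called.

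The effect of colitis on Ly6a in ligated and unligated KC differed near the threshold. In ligated mice this effect was taken as CBDL+DSS against CBDL6w, whose times of ligation may differ. The contrast of CBDL+DSS minus CBDL6w with DSS minus Sham6w was -4.45 ± 1.25 (limma adjusted p = 0.0357). It was the 1 call among 10 member tests, against backgrounds of 6.02% of genes in KC, 2.09% in MoMF and 0.311% in Mo. KC CBDL6w libraries held 9.25, 8.07, 1.92 and 69.3 normalized counts of Ly6a, with replicate 4 far above the others. The call was lost without any one of 9 of the 16 libraries (CBDL+DSS replicate 2 or 6, DSS replicate 1, 2 or 4, CBDL6w replicate 2 or 4, Sham6w replicate 2 or 4), with values between -5.12 and -3.59. It was also lost without the filter (adjusted p = 0.158) and with the replicate block (-3.77, adjusted p = 0.109). Ly6a had entered the KC fit only through DSS libraries, an arm of this contrast. The call therefore rests on the group that carried Ly6a past the filter. In Mo the same contrast was -1.06 ± 0.26 for Ly6c2 (adjusted p = 0.0622) and -1.57 ± 0.41 for Ly6e (adjusted p = 0.0783), and in MoMF -2.59 ± 0.85 for Ly6a (adjusted p = 0.127). These 3 passed under an alternative, Ly6c2 and Ly6e in DESeq2 (adjusted p = 0.0045 and 0.00899) and Ly6a with a pseudocount of 5 (limma adjusted p = 0.0474).

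The rest of the Ly6 cluster was mostly silent in these cells. Of 21 listed genes 10 were in the table, and 2 passed the filter in KC, 5 in MoMF and 6 in Mo. The tested genes beyond the members were Ly6c1, in Mo, and Gpihbp1, an endothelial gene that carries lipoprotein lipase, in MoMF and Mo. In Mo, Ly6c1 averaged 20.7 ± 8.65 normalized counts in CBDL+DSS, 62.0 ± 16.9 in DSS and 41.9 ± 9.72 in Sham6w (SD, n = 4, 4 and 3). It fell in CBDL+DSS against DSS (-1.59 ± 0.35, limma adjusted p = 0.00706). Gpihbp1 fell in the same comparison in Mo (-3.60, adjusted p = 0.00158) and MoMF (-2.53, adjusted p = 0.0474). Ly6g, which marks neutrophils, had 7 reads in all 58 libraries. Of the Ly6/uPAR genes elsewhere in the genome, the 1 tested, Plaur (the urokinase receptor), passed in no injury comparison. Of the GPI anchor enzymes, 1 of 11 rose in KC DSS and 1 of 10 fell in MoMF CBDL+DSS against DSS.

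Across the 15 group means, the profiles of the members were of different kinds. Among the 5 genes most like Ly6c2 of 3790 ranked, by Pearson correlation of log2 group means, were Ly6c1 (0.97), Rara (0.93), Vim (0.93) and Chil1 (0.92). For Ly6a they included Egfl7 (0.88), Meis2 (0.87), Isg15 (0.87) and Dnase1l3 (0.87), of which Egfl7 and Dnase1l3 are on the endothelial list and Isg15 on the type I interferon list. For Ly6e they included Pla2g16 (0.86), Rtp4 (0.84), Rnf213 (0.82) and Arl6ip1 (0.81), with Rtp4 on the type I interferon list. For Ly6i they were Myd88 (0.85), Nadk (0.85), Lmo4 (0.84), Ikzf1 (0.84) and Plxnc1 (0.83). Between members the correlation was 0.69 for Ly6c2 and Ly6i, 0.68 for Ly6a and Ly6i, 0.35 for Ly6e and Ly6a, 0.32 for Ly6c2 and Ly6a, 0.03 for Ly6e and Ly6i and -0.43 for Ly6c2 and Ly6e. The 15 points share cell type, library and depth within a group, and these values are a description.

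In order of level, Ly6c2 ran from Mo DSS (275 ± 60.1, SD, n = 4) through Mo Sham6w (173 ± 47.3, n = 3), Mo CBDL2w (128 ± 17.0), Mo CBDL6w (110 ± 1.80) and Mo CBDL+DSS (85.1 ± 7.77) to MoMF DSS (15.7 ± 8.63). Of these neighbours, Mo Sham6w and Mo CBDL2w overlapped and the others did not. All groups below MoMF DSS overlapped their neighbours, down to KC CBDL6w (0.448 ± 0.897). Ly6a was highest in MoMF DSS (136 ± 87.8), Mo DSS (103 ± 50.0) and KC DSS (61.1 ± 44.2) and lowest in KC CBDL+DSS (4.68 ± 4.10), and of its neighbours Mo Sham6w (47.9 ± 7.42) and MoMF Sham6w (23.6 ± 10.6) alone did not overlap. Ly6e ran from KC Sham6w (598 ± 32.8) to Mo CBDL+DSS (176 ± 53.7), and Ly6i from MoMF DSS (17.4 ± 6.82) to 0 in KC DSS and KC CBDL+DSS, with overlap between every pair of neighbours.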

How the data were processed

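Per the labels' protocols, total RNA was turned into QuantSeq 3' mRNA FWD libraries with the UMI Second Strand Synthesis Module, which tags molecules. Per the submitters' processing notes, the tools were RSEM 1.3.1, STAR 2.7.5b, DESeq2, Trimmomatic 0.39 and 0.39-1 and UMI-tools 1.0.1, with the build GRCm38.p6. The deposited signal values were counts that the authors had divided by a size factor per library. Dividing each column by what 1 count was worth gave whole numbers within 0.01 for 100% of values, with size factors of 0.404 to 1.675. These whole numbers are called reads throughout. With UMI-tools and RSEM in use they may be tagged molecules or rounded estimates, which was not tested. Of 25307 gene IDs, 25272 matched GENCODE M21 and 35 did not. No library pair was identical.

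Tests used limma 3.58.1 (R 4.3.3; trend, robust) on log2(normalized count + 1), for genes with at least 10 normalized counts in at least 3 libraries of the fit. One fit per cell type covered its 5 injury groups (6159 genes in KC, 6079 in MoMF, 6112 in Mo) and one fit covered all 58 libraries (7555 genes). P-values are two-sided and Benjamini-Hochberg adjusted per comparison, with a threshold of 0.05. Alternatives were DESeq2 1.42.0 and edgeR 4.0.16 applied to those whole reads, a pseudocount of 5, no filter, equal library totals, a replicate block, only libraries with a single replicate number, an endothelial covariate and each library left out. Ly6c2 in KC had an exact permutation test. On simulated data the fits were checked for recovery of known changes. Named genes are the members, the measured genes of the Ly6 cluster, up to 3 genes per list with the highest mean, and the 5 most similar profiles per member. Some genes that this rule names are not reported here. Members and lists were chosen with earlier results of these data known. Intervals and floors cover counting error only, and not the assignment of tags between genes with similar 3' ends.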

Additional observations from a re-analysis of the deposited data

Results flagged for a closer look

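Sets of 4 libraries were screened, each a member in a group with more than 3 reads in a library. Of 42 such sets, 7 held 1 library far from the other 3. Sets of different members share libraries and some hold few reads, so this count was not set against chance. Ly6c2 reached 22.6 normalized counts in MoMF CBDL6w replicate 2, against 5.59 to 7.73 in the other 3. Ly6e stood at 230.4 in KC CBDL+DSS replicate 6, against 347 to 359. Ly6a reached 127 in KC DSS replicate 4, against 35.0 to 44.7. Ly6i reached 7.21 in Mo CBDL2w replicate 2, against 2.46 to 2.64.

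The remaining 3 came from replicate 4 of CBDL6w. Ly6a reached 69.3 there in KC (1.92 to 9.25 in the others), and Ly6i reached 5.69 in MoMF (0 to 0.858) and 10.1 in Mo (0.828 to 1.92). The same replicate number held the highest interferon-gamma gene share of its group in all 3 cell types, 0.193% in KC, 0.193% in MoMF and 0.237% in Mo, against 0.0565% to 0.0929%, 0.0681% to 0.0912% and 0.0678% to 0.0977% in the others. Whether these libraries came from the same mouse is not stated.

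Effects also differed between groups in 2 results. The effect of colitis on Ly6a in KC was lower with ligation than without by -4.45 ± 1.25 (limma adjusted p = 0.0357), with CBDL+DSS below CBDL6w on average (4.68 and 22.1) and DSS above Sham6w (61.1 and 8.14). That call was lost with the replicate block (-3.77, limma adjusted p = 0.109) and without the filter on low values (adjusted p = 0.158). Ly6a passed that filter in KC only through DSS libraries, an arm of the contrast. The DSS effect on Ly6i was lower in KC than in MoMF by -3.48 ± 0.92 (limma adjusted p = 0.0460), with 0 reads in all 4 KC DSS libraries and 7.57 to 23.3 normalized counts in all 4 MoMF DSS libraries. That call, too, was lost without the filter (limma adjusted p = 0.0745) and with the replicate block (-3.42, adjusted p = 0.227). Ly6i likewise passed the filter only through DSS libraries.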

How the results depend on the processing

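Of 44 called member results, 18 kept their direction and call under all alternative settings, 27 without each library in turn and 17 under both. These 17 include Ly6c2 in KC against Mo in 5 of 5 groups. The cause of a lost call was not tested except that dropping the filter adds genes to the adjustment and leaving out libraries lowers their number.

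With the endothelial share as a covariate, Ly6a in Mo turned to 0.41 ± 2.07 (SE, CBDL+DSS), 1.1 ± 2.35 (CBDL2w) and 1.87 ± 2.45 (CBDL6w) against Sham6w. Ly6c2 turned to 0.27 ± 0.57 in Mo CBDL6w and -0.40 ± 1.73 in MoMF DSS, and Ly6e to -0.043 ± 0.73 in MoMF DSS. Each SE was larger than its value, and the endothelial shares of these groups did not overlap Sham6w. Group and share therefore cannot be told apart in them. Calls lost with this covariate were, for CBDL+DSS against DSS, Ly6a -0.77, Ly6c2 -0.99, Ly6e -2.03 and Ly6i -2.08 in Mo and Ly6a -3.20, Ly6e -1.01 and Ly6i -5.63 in MoMF. Against Sham6w they were Ly6c2 -0.26 in Mo CBDL+DSS, Ly6a 1.80 in MoMF DSS and Ly6e -0.91 in MoMF CBDL6w. Between cell types they were Ly6a -0.019 and Ly6e 1.27 (KC against Mo, Sham6w), Ly6e 0.74 (KC against Mo, CBDL6w), Ly6i -3.70 (KC against Mo, DSS), Ly6c2 -1.31 (KC against MoMF, CBDL+DSS), Ly6c2 -3.75 (MoMF against Mo, Sham6w) and the Ly6i DSS effect -3.48.

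Without the filter, calls were lost at the same values: Ly6a in KC (DSS 2.93, CBDL+DSS against DSS -3.69, colitis by ligation -4.45) and Mo (CBDL+DSS -3.20, CBDL2w -3.07), Ly6c2 in Mo CBDL6w (-0.60) and CBDL+DSS KC against MoMF (-1.50), and Ly6i in CBDL2w KC against Mo (-1.90) and its DSS effect (-3.48). A pseudocount of 5 lost Ly6c2 in CBDL+DSS KC against MoMF (-0.76) and Ly6i in CBDL2w KC against Mo (-0.71). It called Ly6i in MoMF DSS (1.68), Ly6a in Mo CBDL6w (-1.88) and MoMF colitis by ligation (-2.32), Ly6c2 in DSS KC against MoMF (-0.82) and Ly6e in the CBDL6w effect of MoMF minus Mo (-1.36). Equal library totals lost Ly6c2 in Mo CBDL6w (-0.60) and Ly6e in MoMF CBDL6w (-1.01) and called Ly6i in Sham6w KC against Mo (-1.87). DESeq2 lost Ly6a in KC DSS (2.95), called Ly6c2 in Mo DSS (0.68), DSS KC against MoMF (-1.21) and Mo colitis by ligation (-1.07) and Ly6e in MoMF CBDL2w (-0.86) and Mo colitis by ligation (-1.48), and gave no adjusted p for the Ly6i DSS effect. EdgeR lost Ly6e in MoMF CBDL6w (-0.96) and the Ly6i DSS effect (-6.14).

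Replicate numbers were not used to pair libraries in the main fits, and whether they mark pairs is not settled. Deviations of same-numbered libraries of an injury group correlated at -0.0611 to 0.0950 over 45 pairs of cell types, 0 above 0.1. Their median was 0.0346, against -0.0108 over 180 pairs with other numbers. Counting error lowers such correlations, and the same-numbered pairs had the higher median, so these values cannot show that libraries were unpaired. CBDL6w replicate 4 did stand apart in all 3 cell types in interferon-gamma genes, and whether these libraries share a source was not tested. With the replicate block, 8 in place of 9 tests of CBDL+DSS against DSS passed, and the values not called were Ly6a in KC (CBDL+DSS against DSS -3.02, colitis by ligation -3.77), Ly6a in Sham6w KC against Mo (-2.70), Ly6c2 in CBDL+DSS KC against MoMF (-1.17) and Mo CBDL6w (-0.63), Ly6e in KC CBDL+DSS against CBDL6w (-0.54) and the Ly6i DSS effect (-3.42). With only the libraries of a single replicate number, calls were lost for Ly6a (Mo CBDL+DSS -3.35, Mo CBDL2w -2.84, MoMF DSS 1.83, Sham6w KC against Mo -2.56), Ly6c2 (Mo CBDL6w -0.83, CBDL+DSS KC against MoMF -1.91, Sham6w MoMF against Mo -4.20), Ly6e (KC CBDL+DSS against CBDL6w -0.83, MoMF CBDL+DSS -1.0, MoMF CBDL6w -0.90) and the Ly6i DSS effect (-4.58).

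Of 354 refits without 1 library, 77 lost the call, and a group left with fewer libraries borrows its spread from the others in the fit. Against Sham6w the ranges were 2.38 to 3.41 (Ly6a, KC DSS), 2.00 to 2.68 (Ly6a, MoMF DSS), -3.78 to -2.40 (Ly6a, Mo CBDL+DSS), -3.33 to -2.72 (Ly6a, Mo CBDL2w), -0.85 to -0.46 (Ly6c2, Mo CBDL6w), -1.14 to -0.78 (Ly6e, MoMF CBDL+DSS) and -1.19 to -0.91 (Ly6e, MoMF CBDL6w). Among the other injury comparisons they were -4.10 to -3.01 (Ly6a, KC CBDL+DSS against DSS), -2.78 to -2.15 (Ly6i, Mo CBDL+DSS against DSS), -0.75 to -0.51 (Ly6e, KC CBDL+DSS against CBDL6w) and -5.12 to -3.59 (Ly6a, KC colitis by ligation). Between cell types they were -3.27 to -2.24 (Ly6a, Sham6w KC against Mo), -2.13 to -1.60 (Ly6i, CBDL2w KC against Mo), 0.61 to 1.002 and 0.64 to 0.92 (Ly6e, KC against Mo in CBDL2w and CBDL6w), -1.88 to -1.17 (Ly6c2, CBDL+DSS KC against MoMF) and -4.17 to -2.89 (Ly6i DSS effect).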
